A study of Rattus norvegicus with 8 samples.

Results

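The 10 genes described here carry out or feed hepatic gluconeogenesis, the synthesis of glucose from lactate, glycerol and amino acids: Pck1, G6pc, Fbp1, Pc, Slc37a4, Ppargc1a, Mpc1, Mpc2, Gpt and Got1. They were chosen by name and not by their values, and every probe set (a group of short probes that reads 1 transcript) whose platform annotation names one of them was taken, which gave 15 of the 31042 probe sets of the array once controls were removed. Messenger RNA was measured in whole rat liver on 8 Affymetrix arrays, with 2 for each of 4 groups, to learn how an agonist of the liver X receptors (LXRs) alters the response of the liver to a glucocorticoid. Male Sprague-Dawley rats received GW3965, a synthetic LXR agonist, at 50 mg/kg or its vehicle by gavage for 3 days. On the last of these days dexamethasone (Dex), a synthetic agonist of the glucocorticoid receptor, at 1.5 mg/kg or physiologic saline was injected into the muscle, and livers were taken 24 h later. The vehicle group thus received the gavage vehicle and saline, the Dex group the gavage vehicle and dexamethasone, the GW3965 group GW3965 and saline, and the Dex+GW3965 group both compounds. By its labels a group's pair of arrays carries a single liver number, with letters a and b to tell them apart, whereas the methods describe 2 animals per group, so the p-values measure the spread between arrays, which may be technical. Dex, GW3965 and Dex+GW3965 were each compared with the same vehicle arrays, so these comparisons are not independent of each other.

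Gluconeogenesis runs most of the steps of glycolysis backward and replaces the irreversible ones by its own enzymes. Pyruvate enters mitochondria through a carrier made of Mpc1 and Mpc2 and is carboxylated to oxaloacetate by pyruvate carboxylase (Pc). Cytosolic phosphoenolpyruvate carboxykinase (Pck1) turns oxaloacetate into phosphoenolpyruvate, fructose-1,6-bisphosphatase (Fbp1) removes a phosphate further along the path, and the glucose-6-phosphate translocase Slc37a4 and the catalytic subunit of glucose-6-phosphatase (G6pc) release free glucose in the endoplasmic reticulum. The transaminases Gpt (alanine) and Got1 (aspartate, cytosolic) link the path to amino acids, and Ppargc1a is a coactivator that supports transcription of gluconeogenic genes in fasting. Glucocorticoids are known to raise glucose output by the liver.

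Promoters are shown for 4 of these genes, those in which a searched motif was found. They divide in the measurements below: mRNA of Pck1 and Slc37a4 stayed high in Dex+GW3965 livers, while that of G6pc and Ppargc1a was lower than in Dex livers. The sequences are RefSeq's for rat build GRCr8, from 250 bases before to 50 bases after the annotated start site, and are written along the gene's strand. They lie at chr3:182348322-182348621 on the plus strand (Pck1), chr10:86807409-86807708 on the plus strand (G6pc, now named G6pc1), chr8:53619775-53620074 on the plus strand (Slc37a4, the first of its overlapping windows) and chr14:63634058-63634357 on the plus strand (Ppargc1a). Capitals mark the letters of the nuclear receptor core AGGTCA, the cAMP element TGACGTCA or its core TGACG, each read on either strand, and the cAMP core lies inside the whole cAMP element.
Pck1 promoter: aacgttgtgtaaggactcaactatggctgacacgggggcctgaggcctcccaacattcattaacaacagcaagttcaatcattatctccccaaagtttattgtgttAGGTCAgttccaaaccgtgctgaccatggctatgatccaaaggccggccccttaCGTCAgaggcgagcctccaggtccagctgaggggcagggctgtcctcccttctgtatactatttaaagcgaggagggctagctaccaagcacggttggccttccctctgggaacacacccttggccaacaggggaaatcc
G6pc1 promoter: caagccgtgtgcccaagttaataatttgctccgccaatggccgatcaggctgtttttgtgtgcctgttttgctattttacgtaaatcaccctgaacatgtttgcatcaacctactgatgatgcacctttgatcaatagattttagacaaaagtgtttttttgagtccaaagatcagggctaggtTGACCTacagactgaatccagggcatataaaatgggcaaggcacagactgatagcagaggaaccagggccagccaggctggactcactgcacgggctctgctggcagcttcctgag
Slc37a4 promoter: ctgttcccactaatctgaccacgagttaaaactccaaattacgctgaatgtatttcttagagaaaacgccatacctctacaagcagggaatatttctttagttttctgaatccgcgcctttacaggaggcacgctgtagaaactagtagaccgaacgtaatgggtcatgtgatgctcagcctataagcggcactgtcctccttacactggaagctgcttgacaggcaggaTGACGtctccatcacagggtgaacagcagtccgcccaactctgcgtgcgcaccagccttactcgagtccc
Ppargc1a promoter: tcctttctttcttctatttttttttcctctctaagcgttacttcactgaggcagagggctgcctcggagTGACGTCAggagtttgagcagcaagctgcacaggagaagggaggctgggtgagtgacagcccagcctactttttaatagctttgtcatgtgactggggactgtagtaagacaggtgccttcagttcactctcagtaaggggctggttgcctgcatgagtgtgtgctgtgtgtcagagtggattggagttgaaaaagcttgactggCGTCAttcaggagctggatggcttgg
AGGTCA begins at position -144, counted from the start site, in Pck1 and, on the opposite strand, at -66 in G6pc1. These are 2 of the 8 genes with a promoter entry, and 16.2% of all 33469 rat promoters of this length hold it. TGACG was found in 3 of the 8, Pck1, Slc37a4 (which has overlapping windows) and Ppargc1a, against 21.2% of all promoters. TGACGTCA was found in Ppargc1a, against 1.83%. AGGTCA and TGACG each lie in genes from both sides of the division above, so these letters do not follow it. The glucocorticoid receptor core TGTTCT (20.7% of all promoters), its inverted repeat with a spacer of 3 bases (0.0149%), the direct repeat of AGGTCA with a spacer of 4 bases (0.00598%) and the FOXO element TTGTTTAC (1.1%) were in none of the windows of the 8 genes with an entry. A match describes letters in this window and is not a binding site, and no match says only that these exact letters are not in it, since elements that differ from them were not searched. Got1 and Fbp1, whose mRNA was also lower in Dex+GW3965 than in Dex livers, and Mpc1 and Mpc2 had an entry but no match and are not shown. Pc and Gpt had no entry.

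The deposited values are log2 signals, so that a difference of 1 is a doubling, and levels of different probe sets cannot be set against each other. The median signal of an array lay between 5.48 and 5.52, and the median difference between arrays of the same group was 0.0863 to 0.1. Of hepatocyte markers, read to check the labelled tissue, Alb stood at 14.91 in vehicle livers, near the highest value on any array (14.95). Of the 5 measured, Apoa1 rose by 0.50 with dexamethasone, Ttr and Apoc3 fell by -0.10 and -0.18, and Alb and Serpina1 did not pass. Markers of other cells also moved. The mean level of the 4 measured of 6 Kupffer cell markers was 8.54 to 8.61 in vehicle, 8.44 to 8.45 in Dex, 8.91 to 8.96 in GW3965 and 8.49 to 8.51 in Dex+GW3965 livers. In the same order of groups, that of 5 of 6 stellate cell markers was 8.59 to 8.66, 7.91 to 7.95, 8.31 to 8.32 and 7.97 to 7.98, that of 3 erythrocyte markers 9.55 to 9.67, 9.25 to 9.33, 9.78 to 9.84 and 8.75 to 8.76, and that of 2 neutrophil markers 6.55 to 6.57, 4.77 to 4.80, 4.60 to 4.80 and 5.20 to 5.25. That of 4 endothelial markers was 8.94 to 8.99, 8.65 to 8.67, 8.90 to 8.92 and 8.45 to 8.47, and that of 2 of 4 cholangiocyte markers 6.87 to 6.90, 6.25 to 6.41, 6.48 to 6.52 and 6.86 to 6.91. These means join genes that moved apart. With GW3965, Hbb and Alas2 stood at 0.61 and 0.94 and Slc4a1 at -0.96 among the erythrocyte markers, and in Dex+GW3965 against vehicle the cholangiocyte markers Krt19 and Epcam stood at -0.69 and 0.70. In whole liver, fewer cells of a type and less RNA per cell cannot be told apart. The part of these markers in the results on gluconeogenic genes was not tested.

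Probe sets were tested if their signal exceeded the array's own median on 2 arrays or more, which held for 16253 probe sets and for 13 of the 15. The remaining pair reads Ppargc1a below the array median on all 8 arrays. Limma, a linear model across probe sets, was used for all tests, and a change was called when its p, adjusted by Benjamini-Hochberg over all 16253, was under 0.05. Of the 4 probe sets annotated with G6pc, each also carries the symbols Psme3 and Aoc3. The accession of 1386944_a_at is the RefSeq transcript of G6pc1, and this probe set is called G6pc here. Which gene is read by 1370725_a_at, 1372506_at and 1388582_at is not settled by the annotation, and they are named by their numbers.

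Dexamethasone raised mRNA of 9 of the 10 genes and lowered that of Mpc1, each gene read on a single probe set. The small changes of Pc, Mpc1 and Mpc2 were not called without the intensity trend of the model (adjusted p = 0.0791, 0.13 and 0.195 from limma). Over all 13 probe sets tested, 10 were higher, 1 was lower and 2 did not pass, while 17.2% of all probe sets tested were called higher and 24.7% lower. The median log2 change of the 13 was 0.65, against -0.01 over all probe sets. The transaminases rose most, followed by the pair of genes of glucose-6-phosphate hydrolysis.

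**Figure D1:**
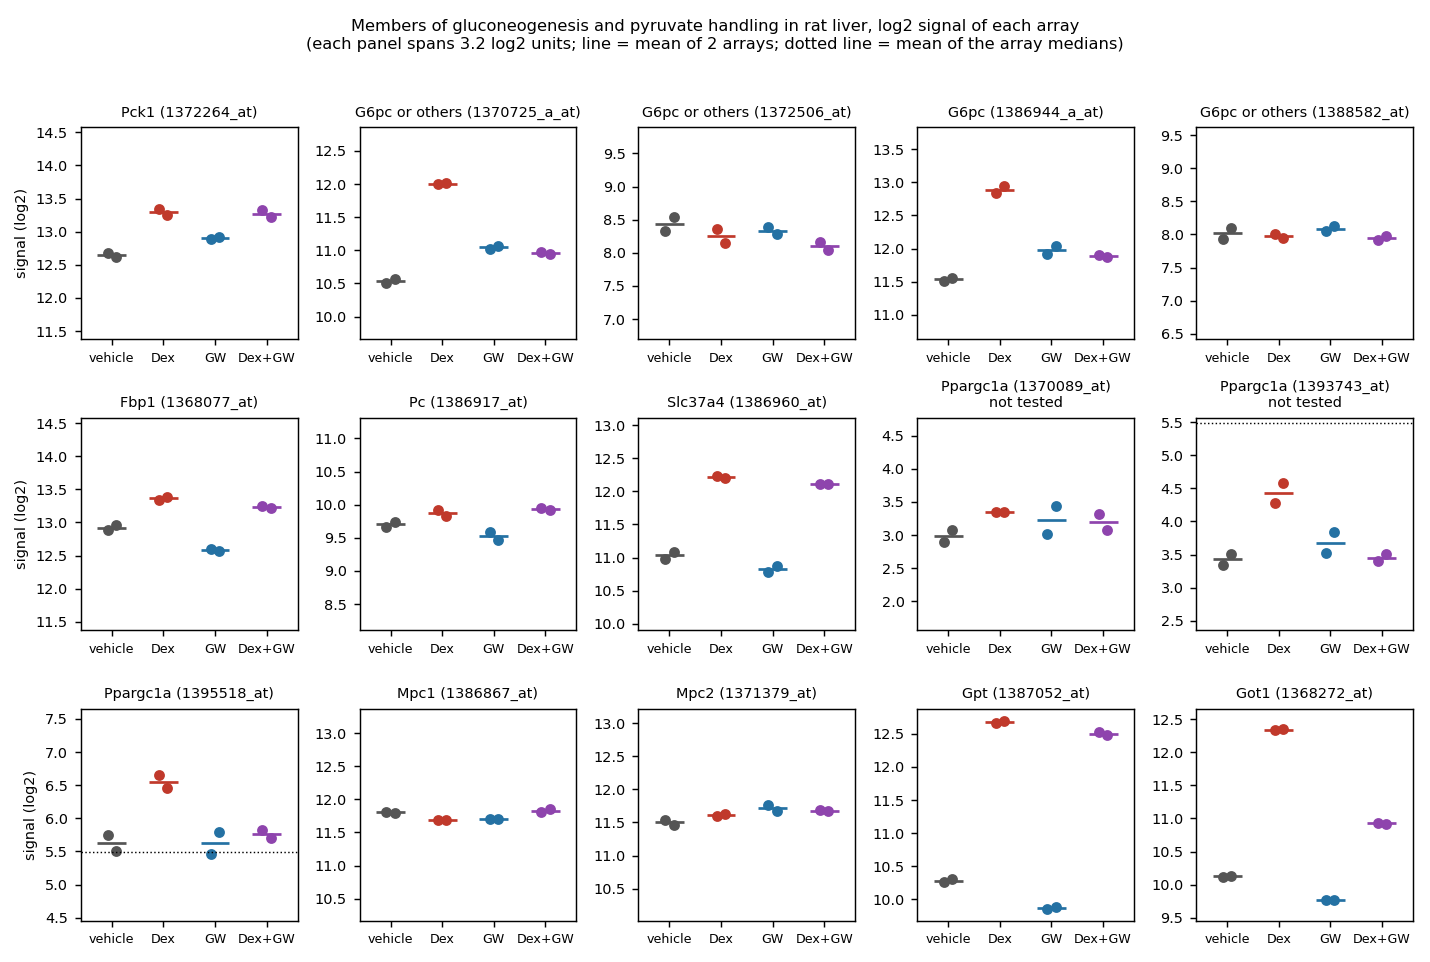
Log2 signal (vertical axis) of each of the 15 probe sets on each of the 8 arrays, by group (horizontal axis), where points are arrays, lines are the mean of 2 arrays and every panel spans the same number of log2 units. Gpt stands high in both groups given dexamethasone, whereas G6pc (1386944_a_at) stands highest in Dex and at nearly the same level in GW3965 and Dex+GW3965; "G6pc or others" marks probe sets whose gene is not settled, and the dotted line is the mean of the array medians.

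Among the transaminases, Gpt, which makes pyruvate from alanine, read 10.27 and 10.30 in vehicle, 12.66 and 12.70 in Dex, 9.86 and 9.89 in GW3965, and 12.53 and 12.48 in Dex+GW3965 livers. No pair of groups overlapped, with both groups given dexamethasone far above the others. The rise with dexamethasone was 2.39 (5.26-fold, SE 0.04, with n = 2 arrays in this and every group, adjusted p = 2.5e-18 from limma), which placed Gpt at rank 77 of all probe sets by size of change. Got1, which moves amino groups between aspartate and glutamate and takes part in the malate-aspartate shuttle, read 10.12 and 10.13 in vehicle, 12.33 and 12.35 in Dex, 9.77 and 9.77 in GW3965, and 10.94 and 10.92 in Dex+GW3965 livers. Here, too, no groups overlapped, but the Dex+GW3965 arrays lay nearer to vehicle than to Dex. Got1 rose by 2.21 with dexamethasone (4.64-fold, SE 0.04, adjusted p = 5.7e-18 from limma), close to Gpt.

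Of the enzymes that release glucose, G6pc read 11.51 and 11.56 in vehicle, 12.83 and 12.95 in Dex, 11.91 and 12.04 in GW3965, and 11.91 and 11.87 in Dex+GW3965 livers. The Dex arrays were above all others, and the GW3965 and Dex+GW3965 arrays lay close together above vehicle, those of GW3965 a little higher. The rise with dexamethasone was 1.36 (2.56-fold, SE 0.04, adjusted p = 6.5e-14 from limma). Probe set 1370725_a_at had a like profile, with 10.50 and 10.57 in vehicle, 12.01 and 12.01 in Dex, 11.02 and 11.07 in GW3965, and 10.97 and 10.95 in Dex+GW3965 livers, and rose by 1.47 with dexamethasone (SE 0.04, adjusted p = 2.6e-15 from limma). The other probe sets with the same symbols lay between 8.04 and 8.55 (1372506_at) and between 7.91 and 8.12 (1388582_at), and neither passed with dexamethasone (adjusted p = 0.077 and 0.67 from limma). Leaving out vehicle replicate a or Dex replicate a brought 1372506_at past the threshold, at -0.30 or -0.29. Slc37a4, which carries glucose 6-phosphate to the phosphatase, read 10.98 and 11.09 in vehicle, 12.23 and 12.21 in Dex, 10.78 and 10.87 in GW3965, and 12.11 and 12.11 in Dex+GW3965 livers. Both groups given dexamethasone lay more than 1 log2 unit above both others, without overlap, and the change with dexamethasone was 1.19 (2.27-fold, SE 0.04, adjusted p = 1.4e-13 from limma).

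The enzymes earlier in the path changed less. Pck1 read 12.67 and 12.62 in vehicle, 13.34 and 13.25 in Dex, 12.89 and 12.92 in GW3965, and 13.32 and 13.23 in Dex+GW3965 livers. The Dex and Dex+GW3965 arrays overlapped, and both groups lay above GW3965, which lay above vehicle. The rise with dexamethasone was 0.65 (1.57-fold, SE 0.04, adjusted p = 2.3e-10 from limma). Fbp1 read 12.88 and 12.96 in vehicle, 13.34 and 13.39 in Dex, 12.59 and 12.56 in GW3965, and 13.25 and 13.22 in Dex+GW3965 livers, with no overlap between any groups and a rise of 0.45 with dexamethasone (1.36-fold, SE 0.03, adjusted p = 7.2e-09 from limma). Pc read 9.67 and 9.74 in vehicle, 9.92 and 9.83 in Dex, 9.58 and 9.47 in GW3965, and 9.94 and 9.93 in Dex+GW3965 livers. Its rise of 0.17 with dexamethasone (1.12-fold, SE 0.05, adjusted p = 0.014 from limma) did not pass without vehicle replicate a (0.13) or without Dex replicate a (0.12).

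The subunits of the pyruvate carrier moved by far less than the transaminases, and in opposite directions. Mpc1 read 11.81 and 11.80 in vehicle, 11.69 and 11.69 in Dex, 11.70 and 11.70 in GW3965, and 11.81 and 11.85 in Dex+GW3965 livers. Dex and GW3965 arrays lay below vehicle, and Dex+GW3965 arrays at or above it. The fall with dexamethasone was -0.11 (SE 0.03, adjusted p = 0.012 from limma) and was not called without either Dex array (-0.11 each). Mpc2 read 11.54 and 11.46 in vehicle, 11.60 and 11.62 in Dex, 11.77 and 11.67 in GW3965, and 11.68 and 11.67 in Dex+GW3965 livers, all 3 treated groups being above vehicle. Its rise of 0.11 with dexamethasone (SE 0.04, adjusted p = 0.036 from limma) was not called without vehicle replicate b (0.07) or without either Dex array (0.12 and 0.10).

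Ppargc1a was close to the background of the arrays. Its tested probe set read 5.75 and 5.50 in vehicle, 6.65 and 6.46 in Dex, 5.46 and 5.80 in GW3965, and 5.83 and 5.71 in Dex+GW3965 livers, where the mean of the array medians was 5.49. Only the Dex arrays stood apart, and the other 3 groups overlapped. The rise with dexamethasone was 0.92 (SE 0.13, adjusted p = 1.4e-05 from limma), measured from a level near background. Of the probe sets below the median, 1393743_at read 3.35 and 3.51 in vehicle, 4.28 and 4.57 in Dex, 3.52 and 3.84 in GW3965, and 3.41 and 3.50 in Dex+GW3965 livers, so that the Dex arrays again stood highest, and 1370089_at lay between 2.89 and 3.44 throughout. Neither was tested at these levels.

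GW3965 alone lowered mRNA of 6 of the 10 genes, raised that of 3, and did not change Ppargc1a beyond the threshold. Over the 13 probe sets, 4 were higher, 6 were lower and 3 did not pass, against 5.93% and 14.5% of all probe sets called higher and lower. Of all calls in this comparison 963 were higher and 2362 lower, a split that quantile normalization of the arrays turned to 1209 and 1504. The genes that rose were G6pc by 0.44 (SE 0.04, adjusted p = 1.2e-06 from limma), Pck1 by 0.26 (SE 0.04, adjusted p = 9.4e-05) and Mpc2 by 0.21 (SE 0.04, adjusted p = 0.001), and probe set 1370725_a_at rose by 0.51. The genes that fell were Gpt by -0.41 (SE 0.04, adjusted p = 3e-07 from limma), Got1 by -0.36 (adjusted p = 1.7e-06), Fbp1 by -0.34 (adjusted p = 1.1e-06), Slc37a4 by -0.21 (adjusted p = 0.0015), Pc by -0.18 (adjusted p = 0.02) and Mpc1 by -0.10 (adjusted p = 0.038). The falls of Slc37a4, Pc and Mpc1 were not called after quantile normalization (-0.12, -0.10 and -0.05). That of Pc was also lost without vehicle replicate b (-0.14) or GW3965 replicate b (-0.12), and that of Mpc1 without either array of vehicle, Dex or GW3965 (-0.11 to -0.10). The falls of Slc37a4, Pc and Mpc1 and the rise of Mpc2 (adjusted p = 0.0573 from limma) were not called without the intensity trend of the model. Thus the transaminases and Fbp1 moved against their direction with dexamethasone, whereas G6pc and Pck1 moved the same way with either compound. For Ppargc1a the change was 0.00, with a 95% interval of -0.27 to 0.28.

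In livers given both compounds, 8 of the 10 genes were above vehicle, none was below it, and Ppargc1a and Mpc1 did not pass. Over the 13 probe sets, 9 were higher, 1 was lower and 3 did not pass, against 15.6% and 21.2% of all probe sets. The 1 lower probe set was 1372506_at, whose gene is not settled, at -0.34 (adjusted p = 0.0031 from limma, not called without vehicle replicate b, at -0.23). Gpt was higher than vehicle by 2.22 (4.65-fold, SE 0.04, adjusted p = 1.1e-17 from limma), Slc37a4 by 1.08 (adjusted p = 7.1e-13) and Pck1 by 0.63 (adjusted p = 4.8e-10). Got1 was higher by 0.80 (1.74-fold, SE 0.04, adjusted p = 8.9e-12 from limma) and G6pc by 0.35 (1.28-fold, SE 0.04, adjusted p = 5.3e-06). The rises of Fbp1, Pc and Mpc2 were 0.32, 0.23 and 0.17, and that of Mpc2 was not called without the intensity trend of the model (adjusted p = 0.0633 from limma). Changes of 0.14 for Ppargc1a (95% interval -0.13 to 0.42) and of 0.03 for Mpc1 (-0.04 to 0.10) did not pass.

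**Figure D2:**
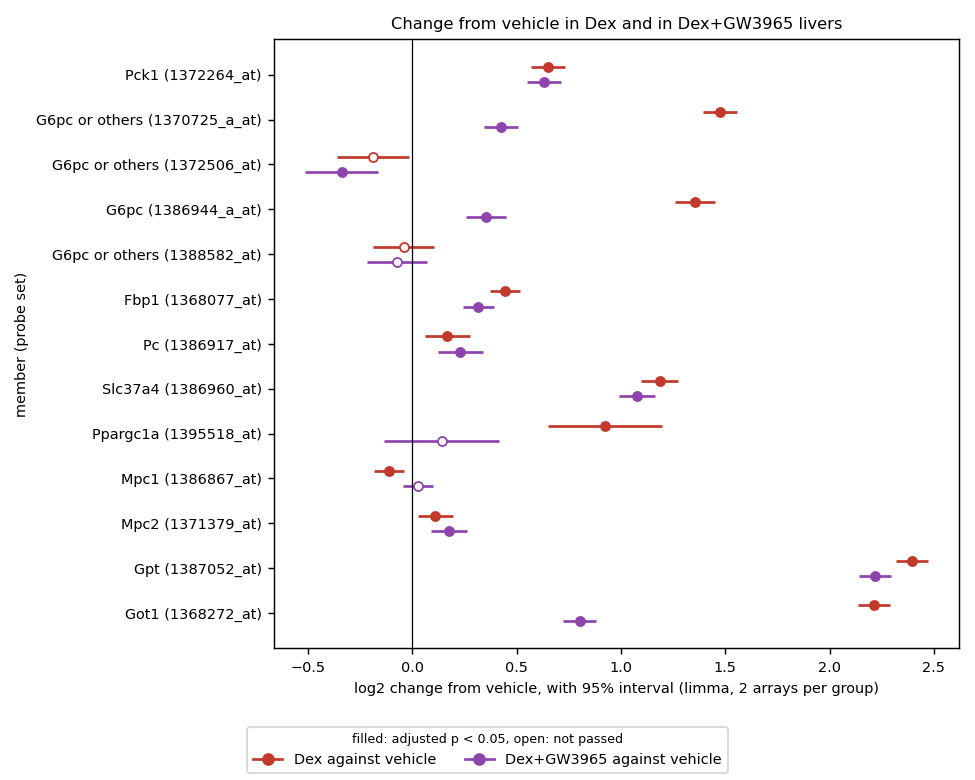
Log2 change from vehicle (horizontal axis) with its 95% interval from limma for each tested probe set (vertical axis), in Dex livers and in Dex+GW3965 livers. Gpt, Slc37a4 and Pck1 have nearly the same change in both, while Got1 goes from 2.21 to 0.80 and G6pc (1386944_a_at) from 1.36 to 0.35.

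The comparison of Dex+GW3965 with Dex asks how GW3965 altered these genes when dexamethasone was present. Of the 10 genes, 5 were lower (Got1, G6pc, Ppargc1a, Gpt and Fbp1), Mpc1 was higher and 4 did not pass. Over the 13 probe sets, 1 was higher, 6 were lower and 6 did not pass, against 13.4% of all probe sets called higher and 9.38% called lower. Got1 fell most, by -1.41 (to 0.376 of its Dex level, SE 0.04, adjusted p = 1.9e-14 from limma), at rank 62 of all probe sets by size of change. G6pc stood at -1.001 (to 0.4995 of its Dex level, SE 0.04, adjusted p = 2.2e-11 from limma) and 1370725_a_at at -1.05 (SE 0.04, adjusted p = 1.5e-12). Ppargc1a stood at -0.78 (SE 0.13, adjusted p = 0.00024 from limma), near the background of the arrays in Dex+GW3965. The falls of Gpt (-0.18, SE 0.04, adjusted p = 0.002 from limma) and Fbp1 (-0.13, SE 0.03, adjusted p = 0.011) were small beside their rises with dexamethasone. That of Fbp1 was not called without Dex replicate b (-0.11) or Dex+GW3965 replicate b (-0.11). Mpc1 was higher by 0.14 (SE 0.03, adjusted p = 0.0053 from limma), which was not called without Dex+GW3965 replicate b (0.12). The changes of Gpt, Fbp1 and Mpc1 were not called without the intensity trend of the model (adjusted p = 0.0676, 0.171 and 0.111 from limma).

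No change past the threshold was found for Pck1, at -0.02 with a 95% interval of -0.10 to 0.06, or for Pc, at 0.06 (-0.05 to 0.17). Mpc2 stood at 0.06 (-0.02 to 0.15). For Slc37a4 the difference was -0.11 (-0.20 to -0.02, adjusted p = 0.069 from limma), and it passed after quantile normalization (-0.13), with only these groups in the model (-0.11) and without either vehicle array (-0.11). As a share of the log2 rise with dexamethasone, the rise in Dex+GW3965 was 96.9% for Pck1, 92.6% for Gpt, 90.8% for Slc37a4 and 71.1% for Fbp1. For Pc and Mpc2 it was 137% and 157.1%, over rises with dexamethasone that were small and lost their call in some fits. For Got1 it was 36.3%, for G6pc 26.1% and for 1370725_a_at 28.8%. None is given for Ppargc1a, whose vehicle and Dex+GW3965 levels lay near background. Both values of a share rest on the same vehicle arrays. A share also includes the change with GW3965 alone, which was 0.26 for Pck1, 0.44 for G6pc, -0.34 for Fbp1 and -0.36 for Got1. With GW3965 present, the change with dexamethasone was 0.37 for Pck1, 0.66 for Fbp1 and 1.16 for Got1. Without GW3965 it was 0.65, 0.45 and 2.21. The members of the glucose-6-phosphatase system therefore differed, Slc37a4 keeping most of its rise and G6pc little, and so did the transaminases Gpt and Got1.

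Read the other way, Dex+GW3965 against GW3965 gives the change with dexamethasone when GW3965 was present. Here 7 of the 10 genes were higher, none was lower and G6pc, Ppargc1a and Mpc2 did not pass. Over the 13 probe sets, 7 were higher, 1 was lower (1372506_at) and 5 did not pass, against 19% and 16.8% of all probe sets. After quantile normalization 6 were higher and 5 lower, the latter with Mpc2 (-0.12), G6pc (-0.14), 1370725_a_at (-0.17) and 1388582_at (-0.18) added, and the split of all calls went from 3096 higher and 2729 lower to 2827 and 3098. The fall of 1372506_at (-0.23, adjusted p = 0.034 from limma) was lost without either GW3965 array (-0.18 and -0.29), without Dex+GW3965 replicate b (-0.17), with no filter on dim probe sets and without the intensity trend of the model. Gpt rose by 2.63 (6.19-fold, SE 0.04, adjusted p = 2e-18 from limma), Slc37a4 by 1.28 (adjusted p = 6.2e-14), Got1 by 1.16 (2.23-fold, adjusted p = 5.7e-14), Fbp1 by 0.66 (adjusted p = 4.8e-11), Pc by 0.41 (adjusted p = 5e-06), Pck1 by 0.37 (adjusted p = 5.9e-07) and Mpc1 by 0.13 (adjusted p = 0.0052). Mpc1 was not called after quantile normalization (0.06), without Dex+GW3965 replicate b (0.11) or without the intensity trend of the model. The change of G6pc was -0.09, with a 95% interval of -0.18 to 0.00 (adjusted p = 0.14 from limma), and fell past the threshold after quantile normalization (-0.14) and without GW3965 replicate a (-0.15). No rise of G6pc with dexamethasone was thus measured in livers that had GW3965, against the 1.36 measured without it.

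**Figure D3:**
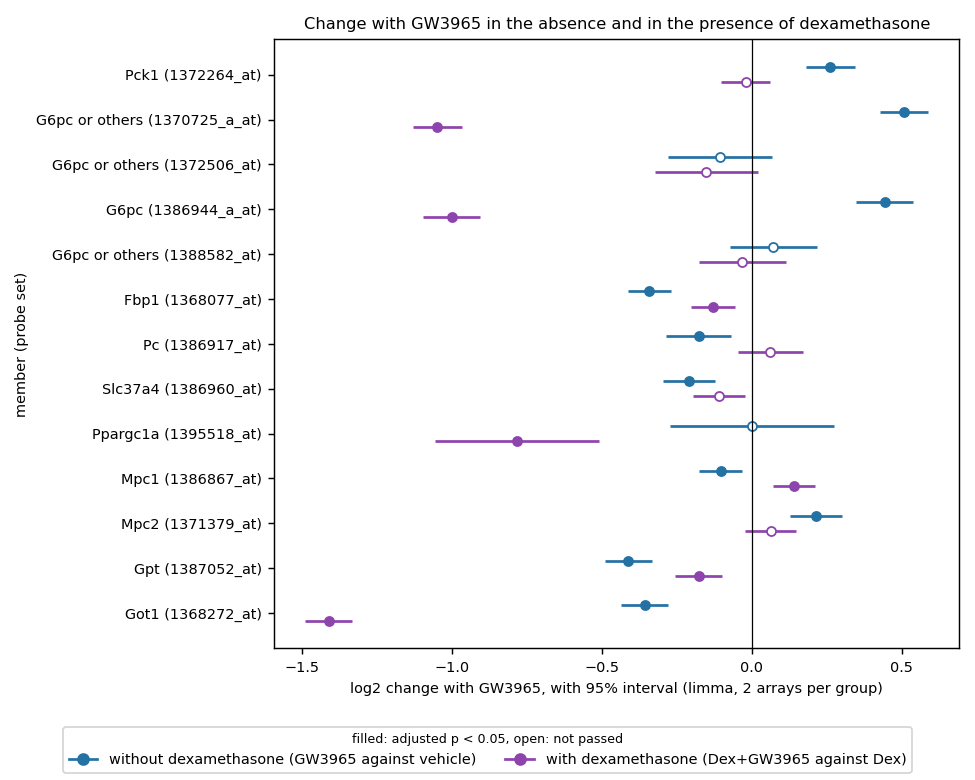
Log2 change with GW3965 (horizontal axis) with its 95% interval from limma for each tested probe set (vertical axis), without dexamethasone (GW3965 against vehicle) and with it (Dex+GW3965 against Dex). G6pc (1386944_a_at) moves from 0.44 to -1.001 and Got1 from -0.36 to -1.41, while Gpt and Fbp1 fall in both.

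The interaction, the change with both compounds less the sum of the changes with each, tested whether the change with GW3965 differed with and without dexamethasone. It passed for 8 of the 10 genes, 4 above and 4 below 0. Over the 13 probe sets, 4 were above 0, 5 below and 4 did not pass, against 15.8% and 6.93% of all probe sets. Of all calls 2571 were above and 1127 below 0, a split that quantile normalization turned to 1836 and 1593. The largest were those of G6pc at -1.45 (SE 0.06, adjusted p = 2.8e-11 from limma), of 1370725_a_at at -1.56 (adjusted p = 2.1e-12) and of Got1 at -1.05 (SE 0.05, adjusted p = 1.4e-10). Ppargc1a stood at -0.78 (SE 0.18, adjusted p = 0.0048 from limma) and Pck1 at -0.28 (SE 0.05, adjusted p = 0.0011). Above 0 were Mpc1 at 0.24 (adjusted p = 0.0011 from limma), Pc at 0.24 (adjusted p = 0.023), Gpt at 0.23 (adjusted p = 0.0034) and Fbp1 at 0.21 (adjusted p = 0.004). The values of Pc and Fbp1 were not called after quantile normalization (0.13 and 0.16), and that of Pc was also lost in 5 of the 8 fits that left out an array. Slc37a4 (0.10, 95% interval -0.02 to 0.22) and Mpc2 (-0.15, -0.27 to -0.03, adjusted p = 0.069) did not pass. For Mpc2 the interaction passed after quantile normalization (-0.22) and without vehicle replicate a (-0.19) or GW3965 replicate b (-0.20).

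The remaining enzyme steps of the path rose with dexamethasone. Of 8 measured genes of the reversible and other steps, 7 were higher, none was lower and G6pc3, the ubiquitous paralog of G6pc, did not pass (0.00), with a median log2 change of 0.36 against -0.01 over all probe sets and with 17.2% of all probe sets called higher and 24.7% lower. Gpi, which interconverts glucose 6-phosphate and fructose 6-phosphate, rose by 1.27 (SE 0.06, adjusted p = 6.7e-12 from limma), the enolase Eno1 by 0.58 (adjusted p = 1.9e-09) and Slc2a2, the glucose transporter of the hepatocyte membrane, by 0.41 (adjusted p = 1.3e-06). With GW3965 alone none of the 8 passed, against 5.93% and 14.5% of all probe sets called higher and lower. In Dex+GW3965 livers 6 were higher than vehicle and none lower (15.6% and 21.2% of all probe sets), with Gpi at 1.11. Against Dex only Eno1 passed, at -0.18 (adjusted p = 0.0036 from limma), where 13.4% and 9.38% of all probe sets were called higher and lower.

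Genes by which carbon enters the path moved in both directions. Of 16 genes of amino acid, lactate and glycerol entry and of mitochondrial shuttles, 9 rose and 5 fell with dexamethasone, against 17.2% and 24.7% of all probe sets, with a median of 0.15 against -0.01. The number that fell is near that share of all probe sets. Sds, the serine dehydratase that makes pyruvate, rose by 3.52 (SE 0.07, adjusted p = 4.2e-17 from limma) and Tat, which breaks down tyrosine, by 1.04 (adjusted p = 3.4e-13). The genes that fell were Aqp9, the glycerol channel of hepatocytes, by -1.23 (adjusted p = 1.1e-12 from limma), Slc16a1, a carrier of lactate and pyruvate, by -0.65, the aspartate-glutamate carriers Slc25a13 and Slc25a12 by -0.46 and -0.43, and glycerol kinase (Gk) by -0.38. Mitochondrial relatives of the transaminases described above rose too, Gpt2 by 0.73 and Got2 by 0.20, as did the malate dehydrogenases Mdh1 by 0.96 and Mdh2 by 0.47, the other enzymes of the shuttle with Got1.

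With GW3965 alone 1 of these 16 rose and 5 fell, against 5.93% and 14.5% of all probe sets. Tat fell by -0.52 (adjusted p = 3.1e-08 from limma), Slc25a12 by -0.31, Sds by -0.28, Gpt2 by -0.28 and Slc16a1 by -0.16, and Ldha rose by 0.14. In Dex+GW3965 livers 9 were above vehicle and 5 below (15.6% and 21.2% of all probe sets), and Tat was below it by -0.88 (adjusted p = 5e-12 from limma). Against Dex, 4 were higher and 5 lower (13.4% and 9.38% of all probe sets). Tat stood at -1.92 (SE 0.04, adjusted p = 6.5e-16 from limma) and Sds at -1.74 (adjusted p = 3e-12), while Gk stood at 0.75 (adjusted p = 1.2e-10) and Aqp9 at 0.72 (adjusted p = 8.5e-09). Mdh1 stood at -0.34 (adjusted p = 3.6e-07 from limma), less than Got1 at -1.41, and Got2 at -0.07 did not pass.

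**Figure D4:**
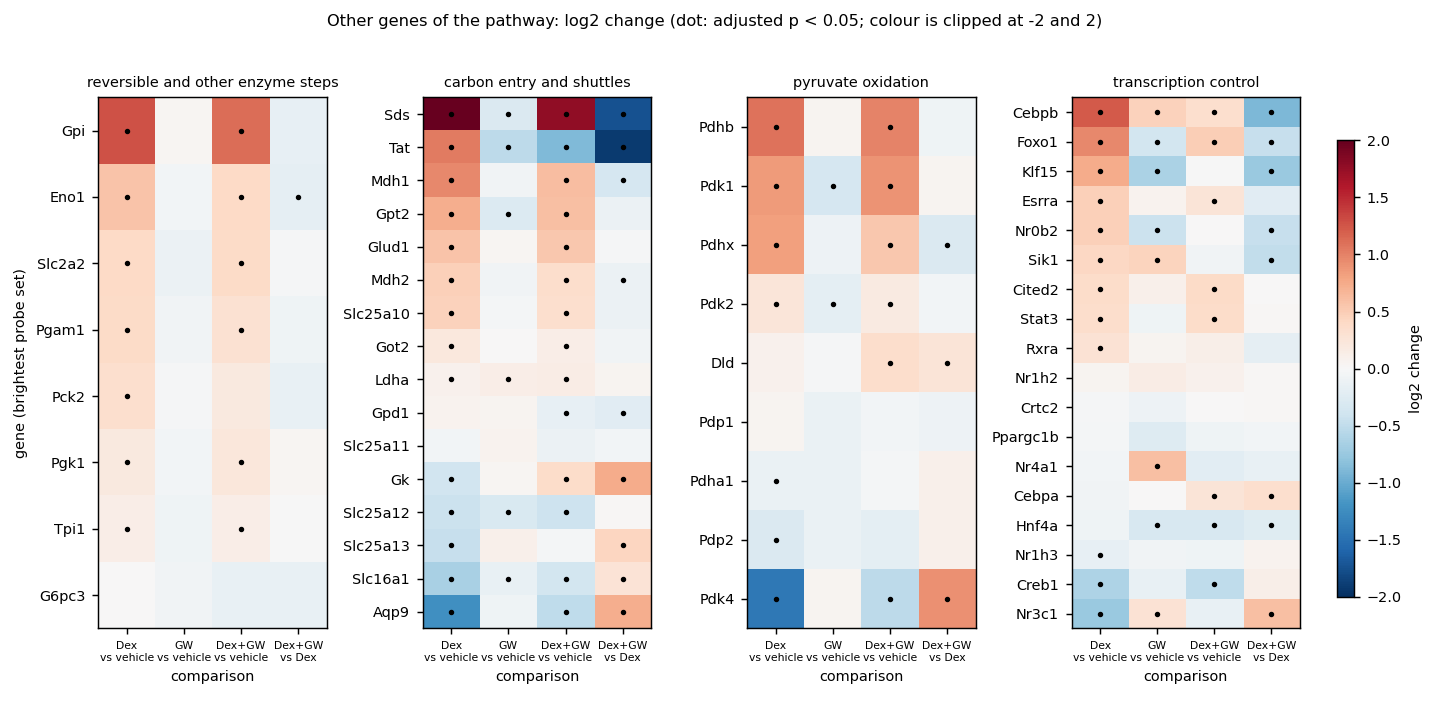
Log2 change (colour, clipped at -2 and 2) of the measured genes of 4 lists around the path in 4 comparisons (horizontal axis), where a dot marks an adjusted p under 0.05 from limma and genes (vertical axis) are ordered by their change with dexamethasone. Sds and Tat are high in Dex against vehicle and low in Dex+GW3965 against Dex, whereas Gpi and Pdhb are high in both groups given dexamethasone.

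Pyruvate that enters mitochondria is either carboxylated or oxidized by the pyruvate dehydrogenase complex, which kinases (Pdk) switch off and phosphatases (Pdp) switch on. Of 9 measured genes of the complex and its regulators, 4 rose and 3 fell with dexamethasone, against 17.2% and 24.7% of all probe sets, so that the number that fell is near the share over all probe sets. The kinases went apart, Pdk4 falling by -1.43 (SE 0.06, adjusted p = 6.6e-13 from limma) while Pdk1 rose by 0.85 (adjusted p = 7.6e-09) and Pdk2 by 0.24. Pdhb, a subunit of the complex, rose by 1.09 (adjusted p = 1.2e-13 from limma) and Pdhx by 0.83, while Pdha1 and the phosphatase Pdp2 fell by -0.14 and -0.29. With GW3965 alone none rose, and Pdk1 and Pdk2 fell by -0.34 and -0.19, against 5.93% and 14.5% of all probe sets. In Dex+GW3965 livers 5 were above vehicle and Pdk4 was below it, at -0.52 (adjusted p = 7.3e-07 from limma), against 15.6% and 21.2%. Against Dex, where 13.4% and 9.38% of all probe sets were called higher and lower, Pdk4 was higher by 0.91 (SE 0.06, adjusted p = 1.8e-09 from limma), Dld was higher by 0.25 and Pdhx was lower by -0.29.

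The list of transcription control joins factors and cofactors that act on gluconeogenic genes with a kinase, Sik1. Of its 18 measured genes, 9 rose and 3 fell with dexamethasone, against 17.2% and 24.7% of all probe sets, with a median of 0.18 against -0.01. Cebpb rose by 1.23 (SE 0.06, adjusted p = 4e-12 from limma), Foxo1 by 0.96 (adjusted p = 2.6e-08) and Klf15 by 0.74 (adjusted p = 8.2e-10). Nr3c1, the glucocorticoid receptor itself, fell by -0.75 (adjusted p = 1.9e-08 from limma), Creb1 by -0.62 and Nr1h3, which encodes LXR alpha, by -0.16. With GW3965 alone 4 rose and 4 fell (5.93% and 14.5% of all probe sets), among them Klf15 at -0.63 (adjusted p = 4.4e-08 from limma), Nr4a1 at 0.60 and Cebpb at 0.46. In Dex+GW3965 livers 6 were above vehicle and 2 below (15.6% and 21.2% of all probe sets), the latter Creb1 at -0.50 and Hnf4a at -0.33. Against Dex, 2 were higher and 6 lower (13.4% and 9.38% of all probe sets). Cebpb stood at -0.90 (SE 0.06, adjusted p = 1.5e-09 from limma), Klf15 at -0.75 (adjusted p = 3.4e-09), Sik1 at -0.49, Foxo1 at -0.47, Nr0b2 at -0.46 and Hnf4a at -0.25, while Nr3c1 stood at 0.60 (adjusted p = 1.1e-06) and Cebpa at 0.33. Nr1h2 and Nr1h3, the LXR genes, did not pass in this comparison.

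Gluconeogenic enzymes are highest in periportal hepatocytes, and markers of liver zones were read beside the members. Of 7 periportal markers, which include Sds, 4 rose and 1 fell with dexamethasone, against 17.2% and 24.7% of all probe sets. With GW3965 none rose and 6 fell, against 5.93% and 14.5%, and 7 were higher in Dex+GW3965 than in GW3965, against 19%. Their mean level was 11.39 to 11.47 in vehicle, 12.13 to 12.17 in Dex, 11.12 to 11.16 in GW3965 and 11.91 to 11.93 in Dex+GW3965 livers. Sds weighs heavily on this mean, at 3.52 with dexamethasone and -1.74 in Dex+GW3965 against Dex. The median log2 change of the 7 was 0.41 and -0.02 in these comparisons. In the latter 1 was higher, 1 was lower and 5 did not pass, against 13.4% and 9.38% of all probe sets called higher and lower. Of 5 measured pericentral markers, 2 rose and 3 fell with dexamethasone (17.2% and 24.7% of all probe sets), and their mean level was 11.30 to 11.33, 11.01 to 11.03, 11.29 to 11.31 and 11.14 to 11.16. The part of zonal change in the results on the members was not tested.

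Genes with the profile most like G6pc, Got1 and Mpc1 were ranked by the root mean square difference of their 3 log2 changes from vehicle, over group means of 8 arrays. Nearest to G6pc was Cebpb, at 0.0725, followed by Pptc7 (0.0916), Acer2 (0.134) and Gpatch4 (0.147). Gpatch4 had a mean level of 4.63, below the mean of the array medians (5.49). Its largest change, 1.43, was with dexamethasone, and the filter needed only 2 arrays above their median. The likeness of Gpatch4 thus rests on levels near background. Nearest to Got1 was Rasgef1b, at 0.0654, and the next, Usp2, lay at 0.194. For Mpc1, whose changes were small, 5 genes lay within 0.0105, Ankhd1, Tent4b, Spart, Brd3 and Hmox2. All the values compared rest on the same arrays.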

How the data were processed

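The authors deposited log2 signals, 1 value per probe set and array for 31099 probe sets. Per the methods, the authors re-mapped the probes and took the signal of perfect-match probes, with background subtracted as in MAS. MAS5 is named, with no version, in the submitters' processing notes. Values were used as deposited. The scale was taken as log2 because values ran from 2.497 to 14.95. Gene names came from the platform annotation, which can be old. The members, lists and tests were chosen with earlier results of these data known.

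After removal of 57 control probe sets, the filter above kept 16253 of 31042. In R 4.3.3, limma 3.58.1 fitted the means of the 4 groups to all 8 arrays (lmFit, eBayes with an intensity trend, residual degrees of freedom 4, prior 12.7) and was tested on simulated data. The number of arrays limits the precision. All members were named on each of their probe sets. Other genes were read on their brightest probe set with 1 symbol, and named where they were among the up to 3 largest changed members of a list in a comparison or moved against its majority. Other named genes of the lists were picked after their values were seen. For likeness the 5 nearest probe sets were taken. Of the lists, Gapdh, Dlat and Sirt1 had no such probe set, Fbp2, Pdk3 and Nr1d1 were below the filter, and some members are not reported here. Alternatives were quantile normalization, other filters, eBayes without trend, only the groups compared, the replicate letter as a block, the methods' one-sample t-test as rebuilt here and leaving out each array. Promoter windows were searched on both strands.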

Additional observations from a re-analysis of the deposited data

Results flagged for a closer look

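For 9 of the 13 probe sets tested the change with GW3965 differed with and without dexamethasone by the interaction term of limma (n = 2 arrays per group). Of these, 4 were above 0 and 5 below, against 15.8% and 6.93% of all probe sets tested. The interaction was -1.56 for 1370725_a_at (adjusted p = 2.1e-12 from limma) and -1.45 for G6pc (adjusted p = 2.8e-11), which rose with GW3965 alone and fell with it in the presence of dexamethasone. It was -1.05 for Got1 (adjusted p = 1.4e-10 from limma), which fell in both settings. It was -0.78 for Ppargc1a (adjusted p = 0.0048 from limma), near background outside the Dex group, and -0.28 for Pck1 (adjusted p = 0.0011). It was 0.24 for Mpc1 (adjusted p = 0.0011 from limma), 0.24 for Pc (adjusted p = 0.023), 0.23 for Gpt (adjusted p = 0.0034) and 0.21 for Fbp1 (adjusted p = 0.004). The interactions of Pc and Fbp1 were not called after quantile normalization. Without the intensity trend of the model, those of Pck1, Mpc1, Gpt, Fbp1 and Pc were not called.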

How the results depend on the processing

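Of 1079 log2 changes recomputed under alternatives other than the methods' t-test, 1007 kept their side of the threshold. Another 58 lost their call and 14 gained one. Among changes called before or after, 0 turned direction. Changes called in neither fit were counted among the 1007 even where their direction turned. The numbers of probe sets changed ranged, when each array was left out, from 9 to 11 for Dex, from 8 to 10 for GW3965, from 9 to 10 for Dex+GW3965 against vehicle, from 5 to 8 against Dex, from 6 to 8 against GW3965 and from 8 to 10 for the interaction, and where an arm held 1 array it was assumed to vary like the others. eBayes without an intensity trend called 6 for GW3965, 4 for Dex+GW3965 against Dex and 4 for the interaction, where G6pc, 1370725_a_at, Got1 and Ppargc1a were the 4 called in the interaction and the values of Pck1, Mpc1, Gpt, Fbp1 and Pc were lost. The methods' t-test, with 1 degree of freedom, called 6 for GW3965 and 5 for Dex+GW3965 against GW3965 at its own threshold, and after Benjamini-Hochberg 0 in each of the 5 comparisons it fits, where it called 31, 19, 28, 22 and 25 of all 16253 probe sets. At an unadjusted p of 0.05 or less it called 8 for Dex, 9 for Dex+GW3965 against vehicle and 6 against Dex. With the replicate block, Mpc1 with GW3965 lost its call (-0.10, adjusted p = 0.0629 from limma), and no other call of a member changed. The letters do not pair the arrays, as differences between arrays a and b correlated at -0.232 to 0.0831 between groups. Levels near 5.49 limit what can be said of Ppargc1a.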
